A study of Mus musculus with 6 samples.

Results

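The 10 genes described here are the fatty acid binding protein genes Fabp4, Fabp3 and Fabp5, the adipogenic transcription factor genes Pparg and Cebpa, the fatty acid uptake genes Cd36, Lpl and Angptl4, and the lipid droplet genes Plin1 and Plin2. They were selected with the measured difference between the groups in view, so the differences of the 10 genes are given as a description, with no test. All 10 had probes on the array, 12 probes in all, and all 10 were among the 15535 named genes measured well enough to be compared, out of 20659 with a probe.

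RNA came from MC3T3-E1, an established mouse pre-osteoblast line, after 3 days on scaffolds of an iron, manganese and silicon alloy. The FeMnSi group (n = 3) grew on the alloy scaffold in its original state. The De-HA group (n = 3) grew on the same kind of scaffold after dealloying, which removes part of the metal, and a bioactive coating. Each sample was labelled with Cy3 and hybridised to 1 single-colour Agilent mouse array, and nothing in the labels says whether the replicates were separate cultures, so a p-value here reflects the spread among these arrays, and that spread may be technical.

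Fatty acid binding proteins carry fatty acids through the cytosol. Fabp4 is the form of adipocytes and macrophages, and its gene is a classical target of PPAR-gamma, the nuclear receptor that Pparg encodes. PPAR-gamma acts as a dimer with RXR, works with C/EBP-alpha to drive adipocyte differentiation, and in the marrow stroma favours the fat lineage over the bone lineage. Lipoprotein lipase, the product of Lpl, frees fatty acids from circulating triglycerides, Angptl4 inhibits it, CD36 takes the fatty acids up, and perilipins coat the droplets in which they are stored.

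Values are log2 signals of single probes after each array was shifted to a common 75th percentile (9.34 on this scale). A probe is called well above background when Agilent's software marked its spot so. The share of probes so marked was 63.5% on De-HA 1 and between 69.2% and 74.4% on the other 5 arrays. The arrays were scanned at 2 times, with all 3 De-HA arrays and FeMnSi 1 in scan 1 and FeMnSi 2 and 3 in scan 2. The difference within scan 1 is therefore the De-HA mean minus FeMnSi 1. A fit with the scan as a block gives that same difference, because scan 2 holds no De-HA array. A gene can thus fail to pass there only because 1 FeMnSi array is left to compare with. Whether the scan accounts for a difference was not tested. Of 15 osteoblast markers on the array, 15 had a probe well above background on all FeMnSi arrays and 14 on all De-HA arrays, so the markers of the labelled cell type were detected.

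Fabp4 was the member with the largest difference. With replicates always given in the order 1, 2, 3, its signal was 5.06, 4.69 and 4.57 in De-HA. In FeMnSi it was 6.74, 6.91 and 6.66. All De-HA arrays lay below all FeMnSi arrays, with a gap wider than the spread in either group. The group means were 4.78 ± 0.25 (SD, n = 3) in De-HA and 6.77 ± 0.13 (SD, n = 3) in FeMnSi, a difference of -1.99 ± 0.15 (SE from limma), which is 3.98-fold lower in De-HA. Within scan 1 the difference was -1.96. In a bulk sample, fewer cells that hold a transcript and less of it per cell cannot be told apart.

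The Fabp4 spot was well above background on all 6 arrays but dim in De-HA. Before scaling, its background-subtracted intensity was 31.8, 25.7 and 21.2 on the De-HA arrays and 107, 133 and 108 on the FeMnSi arrays. The lowest scaled log2 signal that counted as well above background was 4.52 on De-HA 1 and 3.60 and 3.72 on De-HA 2 and 3, against a Fabp4 signal of 5.06 on De-HA 1. The size of the difference therefore depends on how the background is handled. With a normexp correction, which adds an offset of 50 to every spot, it was -0.85, in the same direction. Under 17 other ways of processing or leaving out arrays it lay between -2.14 and -1.89. Some of these, such as another filter on dim probes, cannot change this difference, so the range is not that of 17 separate checks. Fabp4 has 1 probe on this array, so its value has no second probe to compare with.

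The other 2 binding protein genes had smaller differences. Fabp3, which encodes the form of heart and skeletal muscle, gave 8.53, 8.59 and 8.65 in De-HA against 8.68, 8.67 and 8.68 in FeMnSi. These arrays do not overlap, yet the difference is -0.09, and the second Fabp3 probe gave -0.06, also without overlap. Fabp5, the epidermal form, gave 12.20, 12.67 and 12.36 on the De-HA arrays and 12.16, 11.95 and 12.02 on the FeMnSi arrays. Its De-HA arrays were all higher, by 0.37 in the mean, but De-HA 1 was above FeMnSi 1 by a small margin, and the difference within scan 1 was 0.26.

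In the mouse genome Fabp5, Pmp2, Fabp9, Fabp4 and Fabp12 are neighbours on chromosome 3, in that order. Fabp9, a testis form, gave 5.76, 4.82 and 5.01 in De-HA and 5.82, 4.72 and 4.74 in FeMnSi, with overlapping arrays and a difference of 0.10. Within scan 1 the Fabp9 difference was -0.63, so its sign depended on the FeMnSi arrays used. The measured probe of Fabp12 gave 5.32 to 5.66 in De-HA and 5.41 to 5.50 in FeMnSi, a difference of -0.02. For Pmp2, which encodes the myelin form, no array had a signal well above background. So of the 3 neighbours that were measured, Fabp9 and Fabp12 overlapped between the groups, and Fabp5 was on the opposite side to Fabp4.

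**Figure D1:**
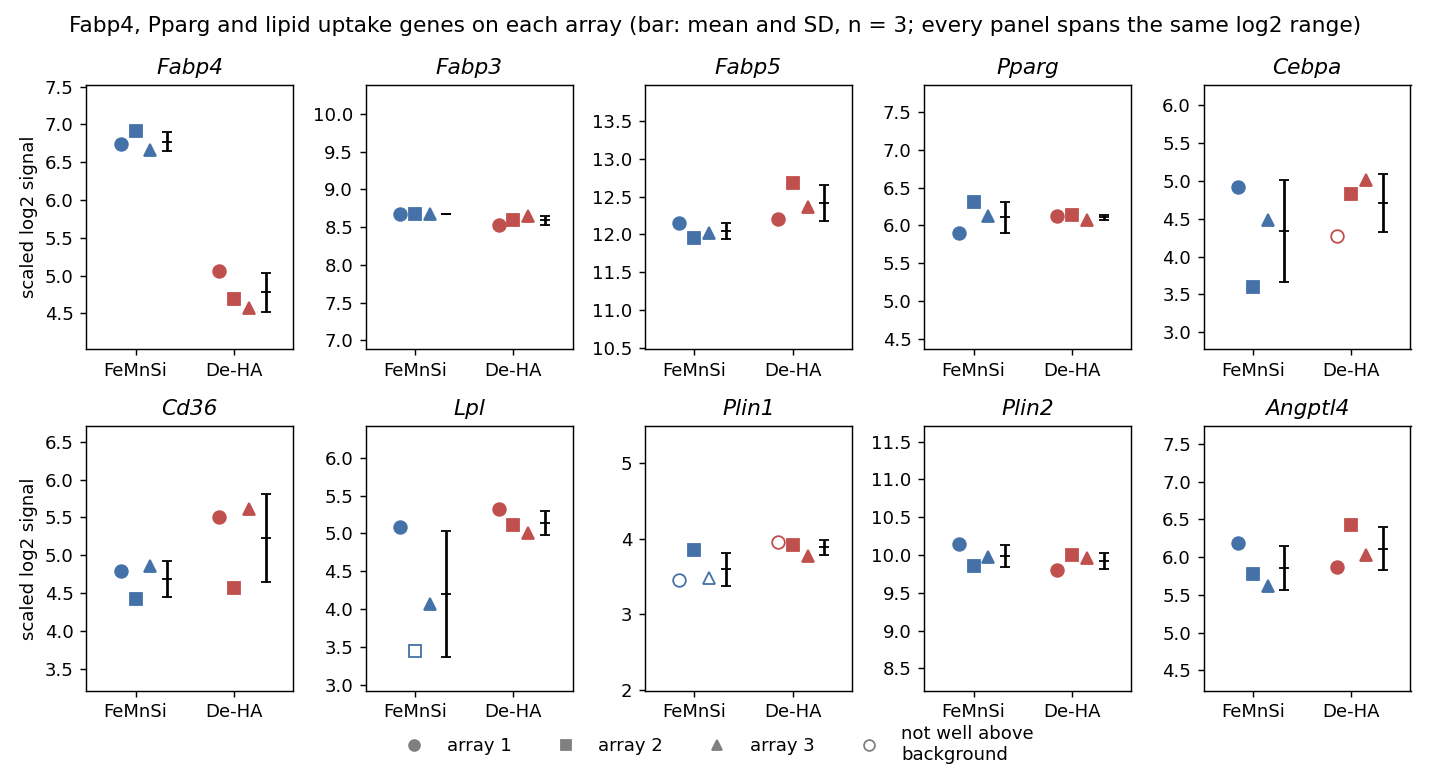
Scaled log2 signal (vertical axis) of the 10 genes on each array, with FeMnSi in blue and De-HA in red, open symbols for spots not well above background, and bars for the mean and SD (n = 3). Fabp4 lies at 4.57 to 5.06 in De-HA and 6.66 to 6.91 in FeMnSi, while the arrays of 7 other genes overlap between the groups.

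PPAR and RXR bind DNA as a pair of AGGTCA hexamers in direct repeat with 1 base between them, an element known as DR1. RefSeq promoter windows of build GRCm38.p6, which reach from 250 bases before to 50 bases after a transcription start, were at hand for Fabp3, Pparg (3 starts), Cebpa, Cd36, Plin1 and Plin2, 8 windows in all, and not for Fabp4, Fabp5, Lpl and Angptl4. The hexamer AGGTCA, read on both strands, was in 4 of the 8 windows and in 16.3% of all 32851 windows. The stretches around it are shown because each holds a single unit of the element that PPAR-gamma is known to bind. They are written 5′ to 3′ on the strand of the gene, with the hexamer or its reverse complement in capitals.

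Plin2, chr4:86670252-86670297, minus strand: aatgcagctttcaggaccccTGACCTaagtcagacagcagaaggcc
Cd36, chr5:17836099-17836144, minus strand: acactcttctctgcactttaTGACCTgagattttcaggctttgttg
Pparg first start, chr6:115361096-115361141, plus strand: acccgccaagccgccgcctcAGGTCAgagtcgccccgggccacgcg
Pparg second start, chr6:115362320-115362348, plus strand: tttatataagggacgcgaggAGGTCAaga

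In each stretch the exact hexamer occurs once. The full DR1, searched as an exact match only, was in none of the 8 windows and in 13 of all windows (0.0396%). These letters are so rare in windows of this length that their absence from 8 windows tells little. Imperfect repeats were not searched. The C/EBP core TTGCGCAA was in none of the 8 and in 0.183% of all windows. A looser form of the same length, TTGCNNAA, where N is any base, also matches the core. It was in 1 Pparg window and in that of Plin1, and in 10.8% of all windows. TATAAA was in 1 Pparg window and in that of Cebpa, and in 13.6% of all. A match describes letters, not binding.

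The arrays of the transcription factor genes overlapped between the groups. Pparg was measured by 10 spots of 1 probe on every array. Its means over spots were 6.12, 6.14 and 6.07 in De-HA against 5.89, 6.31 and 6.12 in FeMnSi. The De-HA arrays lay inside the FeMnSi range, and the difference was 0.00 ± 0.12 (SE from limma). The SD between spots of an array was 0.06 to 0.10, against an SD of 0.21 between the FeMnSi arrays, so for Pparg the spread among FeMnSi arrays exceeded that of the spot measurement. FeMnSi 1 was the lowest array, and within scan 1 the difference was 0.22.

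Cebpa encodes C/EBP-alpha and was near the background. It gave 4.27, 4.83 and 5.01 on the De-HA arrays, where De-HA 1 was not well above background, and 4.92, 3.60 and 4.49 on the FeMnSi arrays. The groups overlapped, with FeMnSi 2 the lowest of all arrays. The difference was 0.37 ± 0.35 (SE from limma) over all arrays and -0.21 within scan 1, so its sign depended on the FeMnSi arrays used.

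Among the genes of fatty acid uptake, none separated the groups. Cd36, with the hexamer shown above, gave 5.51, 4.56 and 5.62 in De-HA against 4.79, 4.42 and 4.86 in FeMnSi. De-HA 1 and 3 were above every FeMnSi array, and De-HA 2 fell between them, so the difference of 0.54 had an SE of 0.29. The Cd36 spot was well above background on all 6 arrays but dim, with intensities of 23.5 to 43.8 before scaling. After normexp its difference was 0.07, so its size depends on how the background is handled. Lpl gave 5.32, 5.11 and 5.0 on the De-HA arrays and 5.08, 3.44 and 4.07 on the FeMnSi arrays. Here the difference of 0.94 ± 0.38 (SE from limma) came from FeMnSi 2, which was not well above background, and FeMnSi 3. FeMnSi 1 lay within the De-HA range, and the difference within scan 1 was 0.06. A second Lpl probe did not reach that mark on a single array.

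Angptl4, whose product inhibits lipoprotein lipase and whose gene is a target of PPARs, gave 5.87, 6.42 and 6.03 in De-HA. In FeMnSi it gave 6.18, 5.77 and 5.62. The groups overlapped, and the difference of 0.25 over all arrays became -0.08 within scan 1.

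The droplet genes differed little. Plin2, the droplet coat gene of most cell types, also with a hexamer shown above, gave 9.80, 10.01 and 9.96 on the De-HA arrays and 10.14, 9.86 and 9.97 on the FeMnSi arrays, with a difference of -0.07 ± 0.11 (SE from limma). Plin1, the perilipin gene of adipocytes, was at the edge of detection. It was well above background on De-HA 2, De-HA 3 and FeMnSi 2 alone, with 3.96, 3.92 and 3.77 on the De-HA arrays and 3.45, 3.84 and 3.47 on the FeMnSi arrays. Its groups overlapped, and its difference of 0.29 was 0.06 after quantile normalization and -0.01 after normexp.

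Counted over the 10 genes, the arrays of the groups did not overlap for 2 genes that were lower in De-HA, Fabp4 and Fabp3, and for 1 that was higher, Fabp5. Over all genes compared, 13.4% did not overlap with De-HA lower and 26.2% with De-HA higher. By limma with Benjamini-Hochberg adjustment over all 15535 genes at a threshold of 0.05, Fabp4 was the 1 member called, among the 4.31% of genes that were lower. The share of genes called higher was 6.37%. Because Fabp4 was chosen by this contrast, nothing is read from its call. The median difference of the 10 genes was 0.27, against 0.10 over all genes. Within scan 1 the differences of Cebpa, Lpl and Angptl4 were lower, at -0.21, 0.06 and -0.08. Those of Pparg and Plin1 were higher there, at 0.22 and 0.43. The median over all genes was 0.06 within scan 1 and 0.00 after quantile normalization. The median of the 10 genes therefore depends on the FeMnSi arrays used, and nothing is read from it.

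**Figure D2:**
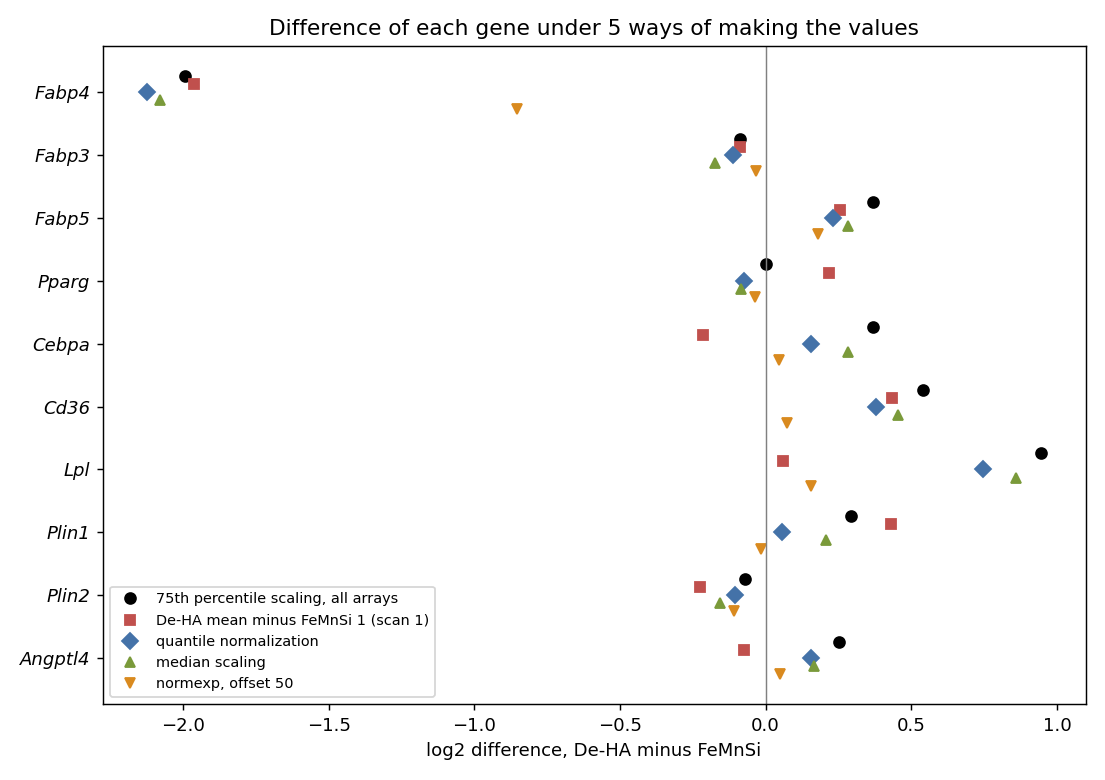
Log2 difference between De-HA and FeMnSi (horizontal axis) of the 10 genes, with 1 symbol for each of 5 ways of making the values. Fabp4 is below 0 under all 5, at -2.12 to -0.85, whereas Pparg, Cebpa, Plin1 and Angptl4 have symbols on both sides of 0.

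The genes with array profiles most like that of Fabp4 were found by the root mean square difference of log2 values over the 6 arrays, each gene centred on its own mean. They were Car9, encoding the hypoxia-induced carbonic anhydrase IX (0.24), Trem2, encoding a lipid-sensing receptor of myeloid cells (0.24), the potassium channel gene Kcnh5 (0.26), Plxdc1 (0.29) and the glutathione transferase gene Gsta3 (0.29). Apart from Kcnh5, their own differences ran from -2.26 for Plxdc1 to -1.70 for Trem2. Kcnh5 had no De-HA array well above background and was at least 2.38-fold lower there as a description, set against the lowest signal that counted as measured. Among the members, the nearest profile to Fabp4 was that of Fabp3, at 0.97. Pparg, with a difference of 0.00, was at 1.01. The Fabp3 profile was thus hardly nearer to that of Fabp4 than the profile of a gene without a difference.

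**Figure D3:**
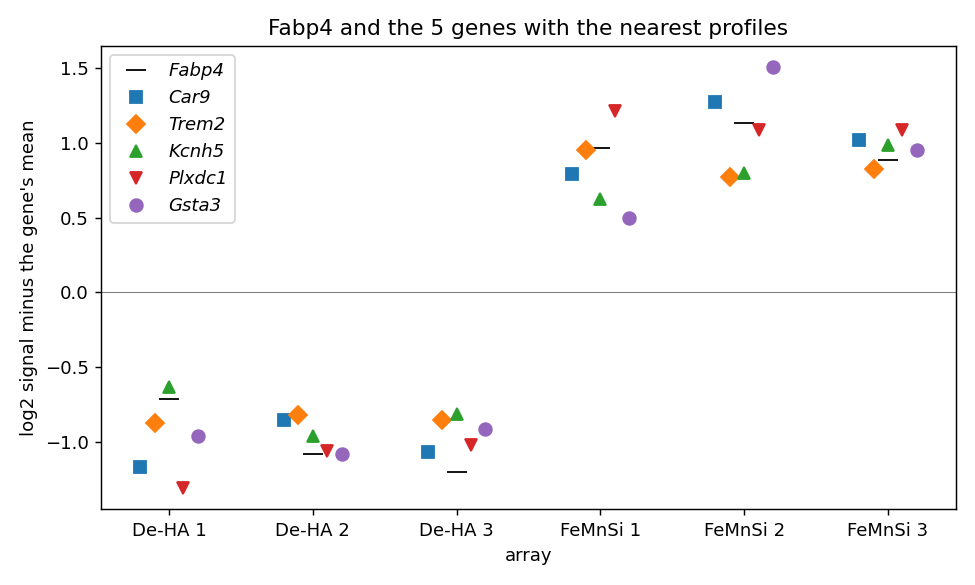
Log2 signal minus the gene's mean (vertical axis) on each of the 6 arrays for Fabp4 (black bars) and the 5 genes nearest to it (symbols). All 6 genes lie below 0 on the De-HA arrays and above 0 on the FeMnSi arrays.

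Beyond the members, 5 lists of PPAR and lipid genes were compared in the same limma fit. Together they held 179 genes that could be tested, of which 10 rose and 4 fell in De-HA at an adjusted p of 0.05, or 5.59% and 2.23%, close to or below the shares of all genes given above. The median difference was 0.13, against 0.10 over all genes, and 0.02 against 0.00 after quantile normalization. At an unadjusted p under 0.05 limma gave 23% of all genes higher and 10.7% lower, the background for each unadjusted count that follows, and of the 179 list genes 45 were higher and 17 lower. Of the 14 genes, 2 also passed with the scan as a block, Abca1 and Id2, in a comparison that rests on FeMnSi 1 alone for that group. Without FeMnSi 1 the number was 43, and without any other single array it was 1 to 5 (1 without FeMnSi 3, 2 without De-HA 2 or De-HA 3, and 5 without De-HA 1 or FeMnSi 2).

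Of 40 tested PPAR target genes, 2 rose and 2 fell, with a median of 0.00. Abca1, the cholesterol efflux transporter gene, rose by 0.97 ± 0.13 (SE, limma adjusted p = 0.0105, 1.18 within scan 1). Aqp7, the glycerol channel gene of adipocytes, rose by 0.87 ± 0.20 (SE, limma adjusted p = 0.0428, 0.67 within scan 1). Cpt1a, which encodes the enzyme that admits fatty acids to mitochondria for oxidation, fell by 0.39 (limma adjusted p = 0.0426, -0.16 by its other probe), and Creb3l3, a hepatic transcription factor gene, fell by 0.64 (limma adjusted p = 0.0482). These counts are near the shares of all genes. Aqp7, Cpt1a and Creb3l3 did not pass with the scan as a block, where limma gave adjusted p-values of 0.272, 0.238 and 0.264.

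Among 38 tested transcription regulators of adipogenesis 4 rose, and no gene was called lower by limma, with 9 higher and 3 lower at an unadjusted p under 0.05, near the shares of all genes. Id2, an inhibitor of basic helix-loop-helix factors, rose by 1.01 ± 0.08 (SE, limma adjusted p = 0.00219, 0.97 within scan 1). Cebpd, an early C/EBP gene of the adipocyte programme, rose by 0.90 ± 0.14 (SE, limma adjusted p = 0.0140, 0.75 within scan 1). Zfp423, a preadipocyte commitment factor gene, rose by 0.63 through its brightest probe (0.09 and 0.36 by its other 2 probes). Wnt10b, whose product blocks adipogenesis and favours bone formation, rose by 0.63 (0.49 within scan 1). The list holds both promoters and inhibitors of adipogenesis, and its median was 0.12. Cebpd, Zfp423 and Wnt10b did not pass with the scan as a block.

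Among the 28 tested genes of the PPAR family, its RXR partners and cofactors, 2 rose: the histone methyltransferase gene Kmt2d by 0.65 (0.17 by its other probe) and the corepressor gene Ncor1 by 0.43. The 3 Ncor1 probes gave -0.25, 0.43 and -0.07, so its direction depends on the probe. No gene of this list was called lower, with 9 higher and none lower at an unadjusted p under 0.05 (all genes 23% and 10.7%), and the list median was 0.22 (0.12 after quantile normalization). Neither Kmt2d nor Ncor1 passed with the scan as a block.

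Of 37 tested genes of fatty acid uptake, binding and activation, 1 rose and 1 fell. Acsl3, which activates long-chain fatty acids at the droplet surface, rose by 0.70 ± 0.11 (SE, limma adjusted p = 0.0159, 0.55 within scan 1), and Angptl6 fell by 0.45 (limma adjusted p = 0.0324). In the list of droplet, storage and lipolysis genes, 1 of 40 rose and 1 fell. Agpat3, an acyltransferase gene of glycerolipid synthesis, rose by 0.62 ± 0.11 (SE, limma adjusted p = 0.0206, 0.43 within scan 1). Ces1f, a carboxylesterase gene, fell by 0.73 (limma adjusted p = 0.0441) and was well above background on 2 of 3 De-HA arrays. The medians of the 2 lists were 0.17 and 0.05 (0.03 and -0.07 after quantile normalization). None of these 4 genes passed with the scan as a block.

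**Figure D4:**
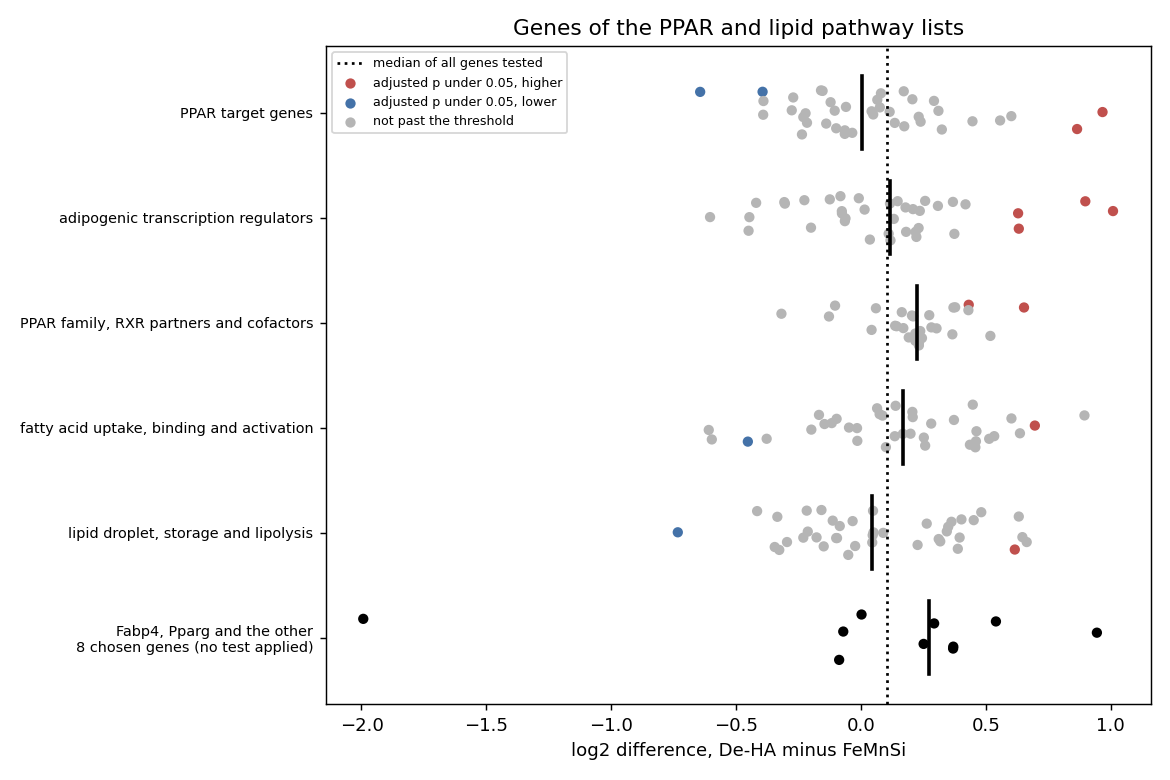
Log2 difference between De-HA and FeMnSi (horizontal axis) of each tested gene in the 5 lists, and of the 10 members in black, with a thick bar at each median and a dotted line at the median of all genes (0.10). Of the 179 list genes, 10 are marked higher and 4 lower, and Fabp4 at -1.99 lies far to the left of them.

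Fabp4, Cd36 and Lpl are also transcribed in adipocytes, macrophages and endothelial cells, so markers of these cells were read on the same arrays. Of 16 adipocyte markers on the array, 8 had a probe well above background on all arrays of each group, and Adipoq, Lep, Cidec and Lgals12 reached that mark on none. Their summed linear signal was 8254 to 11106 in De-HA and 4098 to 6142 in FeMnSi, of which Aqp7 made up 94.9%. Without Aqp7 the sum was 359 to 464 in De-HA and 332 to 378 in FeMnSi. Of 11 tested adipocyte markers 2 rose, Aqp7 and Nnat (1.27 ± 0.30 SE, limma adjusted p = 0.0438), and no marker was called lower, with 4 of 11 higher and none lower at an unadjusted p under 0.05 (all genes 23% and 10.7%). Neither passed with the scan as a block.

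Of 19 macrophage markers, C1qc, Mrc1, Tyrobp, Ctss, Laptm5 and Spi1 reached that mark on no array, and 11 and 10 had a probe well above background on all De-HA and all FeMnSi arrays. The summed signal was 3336 to 3699 in De-HA and 2647 to 3383 in FeMnSi, of which Itgam made up 56.8%. Without Itgam the sum was 1488 to 1602 in De-HA and 1094 to 1322 in FeMnSi. Of 11 tested, Adgre1 and Ptprc rose by 0.78 and 0.56, and Trem2 and Lyz2 fell by 1.70 and 0.39 (limma adjusted p = 0.000947 for Trem2). With the scan as a block Trem2 passed and the other 3 did not. Each direction held 18.2% of the 11, against 6.37% of all genes called higher and 4.31% lower, with too few markers to read a share from. At an unadjusted p under 0.05 limma gave 5 higher and 2 lower (all genes 23% and 10.7%). Of 16 endothelial markers, 7 reached that mark on no array, Cdh5, Tek and Tie1 among them, and 6 had a probe well above background on all arrays of each group. Their summed signal was 5132 to 5674 in De-HA and 5476 to 6097 in FeMnSi, of which Flt1 made up 82.5%. Without Flt1 the sum was 992 to 1020 in De-HA and 905 to 994 in FeMnSi. Of 7 tested endothelial markers Kdr and Esam rose by 0.41 and 0.60, without passing with the scan as a block. No endothelial marker was called lower by limma, with 3 of 7 higher and 1 lower at an unadjusted p under 0.05 (all genes 23% and 10.7%), too few markers to read a share from. The part of these cell types in the Fabp4 values was not tested.

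Of the 15 tested osteoblast markers, 5 rose (33.3%) and 1 fell (6.67%), against 6.37% and 4.31% of all genes. At an unadjusted p under 0.05 limma gave 10 higher and 2 lower (all genes 23% and 10.7%). The list was chosen with earlier results of these data known, so these shares were not tested. Its median was 0.46, and 0.10 after quantile normalization. Phex, an endopeptidase gene of phosphate handling, rose by 1.66 ± 0.11 (SE, limma adjusted p = 0.00141), Ibsp, which encodes bone sialoprotein, by 0.79 (0.17 by its other probe) and Alpl, the alkaline phosphatase gene, by 0.85. Spp1, which encodes osteopontin, fell by 1.08 ± 0.11 (SE, limma adjusted p = 0.00469). With the scan as a block Phex and Spp1 passed, and no other osteoblast marker did, Ibsp and Alpl included. The summed signal of these markers was 217560 to 250800 in De-HA and 180510 to 205570 in FeMnSi, of which Col1a2 made up 35.3%. Without Col1a2 the sum was 134760 to 158890 in De-HA and 124170 to 130720 in FeMnSi. Col1a2, which was not called, differed by 0.46, and by 0.09 after quantile normalization. The sums were not computed after quantile normalization, so how far the gap between them depends on the scaling was not tested.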

How the data were processed

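The submitters' processing notes name Agilent Feature Extraction 11.0.1.1 for the scanner files. The deposited intensity values are, per the file headers, background-subtracted and detrended within each array and not scaled between arrays. The authors' deposited series matrix holds log2 values with the same median in every column (r with the log2 scanner signal 0.997 to 1.00) and was used as an alternative. No spot was saturated, and the number of arrays limits the precision.

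Log2 signals were shifted by each array's 75th percentile of non-control spots without outlier marks, spots marked as outliers were left out, and repeated spots were replaced by their mean. A probe was kept if 3 or more of the 6 arrays had it well above background. Probes were named by RefSeq transcript accession (27234 of 28684 such probes matched 1 gene; 12195 of 39429 probes had no symbol). The probe with the highest mean stood for a gene, so a gene's value is that of 1 transcript region. The De-HA and FeMnSi groups were compared with limma 3.58.1 in R 4.3.3, with Benjamini-Hochberg adjustment over 15535 genes, after the fit was tested on simulated data.

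Genes were named by rule: all members, the Fabp genes next to Fabp4, the 5 nearest profiles, and in each list up to 4 genes past the threshold, or the 2 with the smallest p-values. The members and lists were chosen with earlier results of these data known. The files hold no mean spot signal, so the normexp alternative used spot medians, a choice made after seeing the data. Protein sequences were not used here.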

Additional observations from a re-analysis of the deposited data

How the results depend on the processing

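In all, 1658 genes passed in the comparison of De-HA with FeMnSi. The number was 519 with dim probes kept, 194 with the scan as a block, 57 on the arrays of scan 1 alone, and 240 to 4476 when 1 array was left out, the highest without FeMnSi 1. The share of called genes that were higher in De-HA was 59.7%. It fell to 43.8% under quantile normalization, to 37.3% when arrays were scaled to their medians, to 45.2% after normexp and to 41.3% in the series matrix. Of the 179 genes in the 5 lists, 14 passed, and the number was 6 with dim probes kept, 2 with the scan as a block, 1 on the arrays of scan 1 alone, 28 with an intensity trend, and 1 to 43 when 1 array was left out. With a replicate block, 648 genes passed and 6 in the 5 lists. Same-numbered arrays deviated from their group means with correlations of 0.01, -0.11 and 0.12 across genes. The labels do not say whether same-numbered samples share more than a number, and such weak correlations cannot settle it. The Fabp4 difference was -1.99, -0.85 after normexp, whose offset of 50 compresses dim signals, and -2.14 to -1.89 when 1 array was left out. Over the 10 members, 158 of 177 values under the alternatives moved by less than 1 SD between replicates and 19 by more. These counts overstate stability, because some alternatives, such as the intensity trend and the replicate block, cannot change a difference. The scan block and the arrays of scan 1 alone also give the same difference. Of the other named genes, none reversed in direction where it was called, and 196 of 556 values no longer passed; the cause was not tested. Depth does not apply to arrays. Signal over background limits Cebpa, Cd36, Lpl and Plin1, and also the De-HA values of Fabp4.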
